A study of Mus musculus with 6 samples.

Results

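The 6 genes described here are the protein-coding genes of the mouse mitochondrial genome that belong to respiratory complexes III, IV and V: mt-Co1, mt-Co2 and mt-Co3 of cytochrome c oxidase, mt-Cytb of the cytochrome bc1 complex, and mt-Atp6 and mt-Atp8 of ATP synthase. They were chosen by name, and all 6 were found among the 20482 genes of the deposited count table. RNA was sequenced from 6 subcutaneous tumours of H22, a mouse hepatocellular carcinoma line, each grown from 1000000 cells injected into the right flank of a male C57BL/6 mouse, labelled WT and 6 weeks old. The 3 sensitive tumours (titled NR) came from control mice. The 3 resistant tumours (titled LR) grew in mice dosed with the multikinase inhibitor lenvatinib, intraperitoneally at 100 mg/kg per day on 2 days a week for 2 cycles. The labels conflict on the drug: the treatment field gives no treatment for any tumour, and the text on the control mice names lenvatinib beside a solvent of PBS with 0.1% DMSO. Groups were taken from the titles, and exposure to the drug and resistance to it cannot be told apart in this design.

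Oxidative phosphorylation passes electrons along a chain of complexes in the inner mitochondrial membrane and uses the resulting proton gradient to make ATP. Cytochrome bc1 (complex III) hands electrons to cytochrome c, cytochrome c oxidase (complex IV) passes them to oxygen, and ATP synthase (complex V) lets protons back through its membrane part to drive ATP synthesis. In complexes III, IV and V, mitochondrial DNA encodes a small part of the subunits and the nucleus encodes the rest. The mitochondrial genes are read as long precursor RNAs that are cut apart, mostly at the transfer RNAs between them, while mt-Atp8 and mt-Atp6 stay together on a shared messenger.

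Total counts ran from 15995403 to 17545098 per tumour. Besides the 6 genes, the 7 mitochondrially encoded complex I genes were listed; the 24 ribosomal and transfer RNA genes of the mitochondrial genome were not analysed here. The hepatocellular label was checked against its markers: the keratins Krt8 and Krt18 and albumin (Alb) were at 112 CPM or more (counts scaled to a common library size by TMM) in every tumour, alpha-fetoprotein (Afp) lay between 11.5 and 22.8 CPM, Hnf4a between 0.716 and 2.68 CPM, and Epcam was at 0 in 4 tumours. Skeletal muscle RNA differed between libraries. The 14 muscle markers summed to 1442 CPM in sensitive tumour 1, to 8.41 and 4.00 CPM in sensitive tumours 2 and 3, and to 293, 93.1 and 6.60 CPM in resistant tumours 1, 2 and 3.

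In GENCODE M21 (build GRCm38) the 6 genes lie on the plus strand of the mitochondrial chromosome, and none has an intron. The positions are chrM:5328-6872 for mt-Co1, chrM:7013-7696 for mt-Co2, chrM:7766-7969 for mt-Atp8, chrM:7927-8607 for mt-Atp6, chrM:8607-9390 for mt-Co3 and chrM:14145-15288 for mt-Cytb. The ATP synthase genes overlap by 43 bases, and mt-Atp6 shares its last base with the first base of mt-Co3. The sequence of mt-Atp8 is shown because its lower level is the clearest difference described below, and because a read in its end cannot be given to it alone. Capitals mark the bases that also open mt-Atp6, and in the second line the stop codon of mt-Atp6 and the start codon of mt-Co3, read 5′ to 3′:
mt-Atp8 (chrM:7766-7969): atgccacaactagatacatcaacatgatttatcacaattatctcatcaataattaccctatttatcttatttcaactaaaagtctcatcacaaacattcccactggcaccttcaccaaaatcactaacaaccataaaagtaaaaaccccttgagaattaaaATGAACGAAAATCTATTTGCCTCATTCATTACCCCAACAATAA
mt-Atp6 to mt-Co3 (chrM:8587-8627): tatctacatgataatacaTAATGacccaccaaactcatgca

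mt-Atp8 is the shortest of the 6 at 204 bases, and its GC content of 31.9% is the lowest among them. The other lengths are 681 bases for mt-Atp6, 684 for mt-Co2, 784 for mt-Co3, 1144 for mt-Cytb and 1545 for mt-Co1. The length implied by the deposited count and FPKM (fragments scaled by gene length and library total) equalled the annotated length, to the nearest base, for each of the 6.

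Nuclear copies of mitochondrial DNA can share reads with these genes. Of 33 nuclear genes whose transcripts matched a member, 9 were listed and 4 were near-identical, at 99% identity or more over at least 90% of the copy. These 4 unprocessed pseudogenes stand side by side on the minus strand of chromosome 1: Gm28437 (a copy of mt-Co3), Gm10925 (mt-Atp6), Gm28661 (mt-Co2) and Gm29216 (mt-Co1). The first 3 had no mismatch over 783, 678 and 681 bases. Gm29216 had 1 mismatch over 483 bases, written A1066T with the base of mt-Co1 first and positions counted from 1 at its start. Those 483 bases are 31.3% of mt-Co1, bases 1063 to 1545, and the bases of mt-Co1 before them did not align with Gm29216. The stretch is shown because, within the aligned bases, the capital base is the only difference between that pair of genes:
mt-Co1 (chrM:6390-6413, plus strand): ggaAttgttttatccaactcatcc
Gm29216 (chr1:24616165-24616188, minus strand): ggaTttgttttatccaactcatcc

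No near-identical copy of mt-Cytb or mt-Atp8 was listed. The counting rule for reads that match several genes is not stated in the labels, so the levels of mt-Co1, mt-Co2, mt-Co3 and mt-Atp6 are uncertain by what the copies took. mt-Atp8 shares its last 43 bases, 21.1% of its length, with Gm10925 at 100% identity, so reads there are uncertain too. The search covered annotated transcripts only. On chromosome 1 Gm10925 ends at 24614651 and Gm28661 starts at 24614885. The bases between them were not searched, so whether the rest of mt-Atp8 has a copy there is not known.

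All 6 genes had a lower fitted level in the resistant tumours, as did 52.7% of all tested genes. Their median log2 fold change (resistant minus sensitive) was -0.69 beside -0.02 over the 14392 genes tested. The differences ran from -0.21 for mt-Co3 to -2.11 for mt-Atp8. None of the 6 passed edgeR's quasi-likelihood test at an adjusted p under 0.05, a test that called 0 genes in all (0% of those tested) while 1404 (9.76%) had an unadjusted p under 0.05; limma-voom also called 0 and DESeq2 called 117 (0.872%), 69 of them lower (0.514%). Of the 6 members DESeq2 called mt-Atp8. Of the 6, mt-Atp6 and mt-Atp8 had an unadjusted p under 0.05 and were lower, against 5.73% of all tested genes. For mt-Co2, mt-Atp6 and mt-Atp8 every resistant tumour lay below every sensitive tumour in CPM, against 7.54% of all tested genes. Without sensitive tumour 1 the median of the 6 was -0.27. In bulk tumours, fewer cells of a type rich in these RNAs and less of the RNA per cell cannot be told apart.

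**Figure D1:**
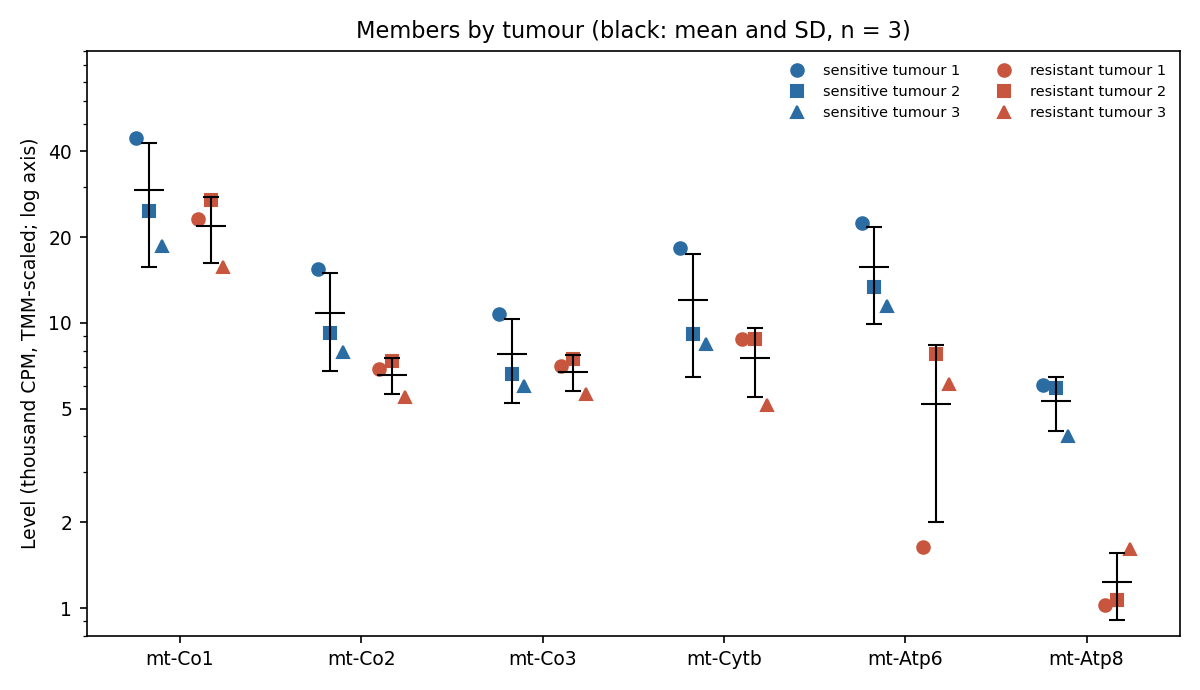
Level of each of the 6 genes in every tumour, in CPM (TMM-scaled) on a log axis; each point is a tumour, and black bars give the group mean and SD (n = 3). The groups separate for mt-Co2, mt-Atp6 and mt-Atp8 and overlap for mt-Co1, mt-Co3 and mt-Cytb, with sensitive tumour 1 the highest for every gene.

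Cytochrome c oxidase was represented by its 3 core subunits. mt-Co1 encodes the subunit that holds the site of oxygen reduction. Its level was 44449.8, 24767 and 18558 CPM in sensitive tumours 1, 2 and 3 and 23197, 26862 and 15749 CPM in resistant tumours 1, 2 and 3. Sensitive tumour 1 stood well above the rest, and the other 5 tumours overlapped. The log2 fold change was -0.42 ± 0.47 (SE, n = 3 and 3), with an adjusted p of 0.737 by edgeR, and it was 0.046 without sensitive tumour 1.

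mt-Co2 encodes the subunit that takes electrons from cytochrome c. It measured 15489, 9179 and 7904 CPM in the sensitive tumours and 6866, 7363 and 5508 CPM in the resistant tumours. The groups did not overlap, but the lowest sensitive and highest resistant tumour lay close together. The log2 fold change was -0.72 ± 0.35, a 1.65-fold lower level, with an edgeR adjusted p of 0.520; without sensitive tumour 1 it was -0.35.

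mt-Co3 encodes the core subunit that carries no redox metal. It measured 10713, 6640.4 and 6025 CPM in the sensitive tumours and 7064, 7494 and 5628 CPM in the resistant tumours. Apart from sensitive tumour 1 the groups were interleaved. The log2 fold change was -0.21 ± 0.32, with an edgeR adjusted p of 0.809, and it was 0.11 without sensitive tumour 1.

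Cytochrome b, the subunit of complex III with both quinone sites, is encoded by mt-Cytb. It measured 18330.3, 9168 and 8452 CPM in the sensitive tumours and 8748, 8744 and 5169.9 CPM in the resistant tumours. Resistant tumour 3 was the only resistant tumour below all sensitive tumours. The log2 fold change was -0.67 ± 0.42, with an edgeR adjusted p of 0.575, and it was -0.19 without sensitive tumour 1.

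Sensitive tumour 1, whose removal moved all 4 of these values by more than 1.5 times, was also the tumour with the most muscle marker RNA. Of the 14 muscle markers, 12 were tested and all 12 had lower fitted levels in the resistant tumours, as did 52.7% of all tested genes. In sum, however, sensitive tumours 2 and 3 (8.41 and 4.00 CPM) lay below resistant tumours 1 and 2 (293 and 93.1 CPM). The muscle forms of oxidase subunits Cox7a1 and Cox8b were below 1 CPM in every tumour, and actin Acta1 was 469 CPM in sensitive tumour 1. Another muscle form, Cox6a2, was 4.28 CPM in sensitive tumour 1, 2.08 CPM in resistant tumour 1 and 0.357 to 1.07 CPM in the other tumours. The 6 tested fat cell markers were lower too, at 394 to 1357 CPM in sum in the sensitive tumours and 17.2 to 566 CPM in the resistant tumours. Fitted levels were also lower for all 6 T cell markers (summed 15.6 to 233 CPM in the sensitive and 4.78 to 16.9 CPM in the resistant tumours) and all 5 endothelial markers (162 to 433 and 106 to 188 CPM). Of 5 B and plasma cell markers 2 were tested, and both were lower. The 5 summed to 2158 CPM in sensitive tumour 2 alone. Their sums were 14.1 and 6.45 CPM in sensitive tumours 1 and 3 and 1.13 to 4.58 CPM in the resistant tumours. The T cell sum of 233 CPM was also that of sensitive tumour 2, beside 27.8 and 15.6 CPM in sensitive tumours 1 and 3. Fitted levels were higher for 5 of 6 fibroblast markers (1664 to 3833 and 1959 to 6491 CPM) and all 5 red cell markers (17.6 to 35.3 and 30.9 to 104 CPM), beside 47.3% of all tested genes. They were also higher for 4 of 6 macrophage markers (606 to 1051 and 478 to 1525 CPM) and 2 of 5 neutrophil markers (27.0 to 87.5 and 23.6 to 89.5 CPM). Of the tumour markers, Krt8 was 144 to 191 CPM in the sensitive and 236 to 429 CPM in the resistant tumours, and Alb 167 to 198 and 112 to 121 CPM. The part of any of these cell types in the results on the 6 genes was not tested.

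ATP synthase showed the largest differences. mt-Atp6 encodes subunit a, which forms the proton path beside the rotating ring. It measured 22451 CPM in sensitive tumour 1, 13347 in sensitive tumour 2 and 11474 in sensitive tumour 3, and 1642, 7784 and 6093 CPM in resistant tumours 1, 2 and 3. The groups did not overlap, and resistant tumour 1 stood far below the other 5. The log2 fold change was -1.61 ± 0.61, a 3.05-fold lower level, with an unadjusted p of 0.0355 and an adjusted p of 0.510 by edgeR and 0.0990 by DESeq2. It was -1.18 without resistant tumour 1 and -1.25 without sensitive tumour 1.

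mt-Atp8 encodes a small membrane subunit of ATP synthase. It measured 6031, 5925 and 4013 CPM in the sensitive tumours and 1023, 1065 and 1608 CPM in the resistant tumours. The groups were far apart: the highest resistant tumour was below the lowest sensitive tumour by more than the range within the resistant group. Means were 5323 ± 1136 CPM (SD, n = 3) and 1232 ± 326 CPM (SD, n = 3), a fitted 4.32-fold lower level in the resistant tumours. The log2 fold change was -2.11 ± 0.30, and its unadjusted edgeR p of 0.00025 was the 7th smallest of 14392. The adjusted p was 0.510 by edgeR, 0.249 by limma-voom and 3.35e-12 by DESeq2, so that the call rests on the tool. Leaving out each tumour in turn gave log2 fold changes of -2.35 to -1.99. A log2 fold change of -2 or less was found for 3.4% of tested genes.

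**Figure D2:**
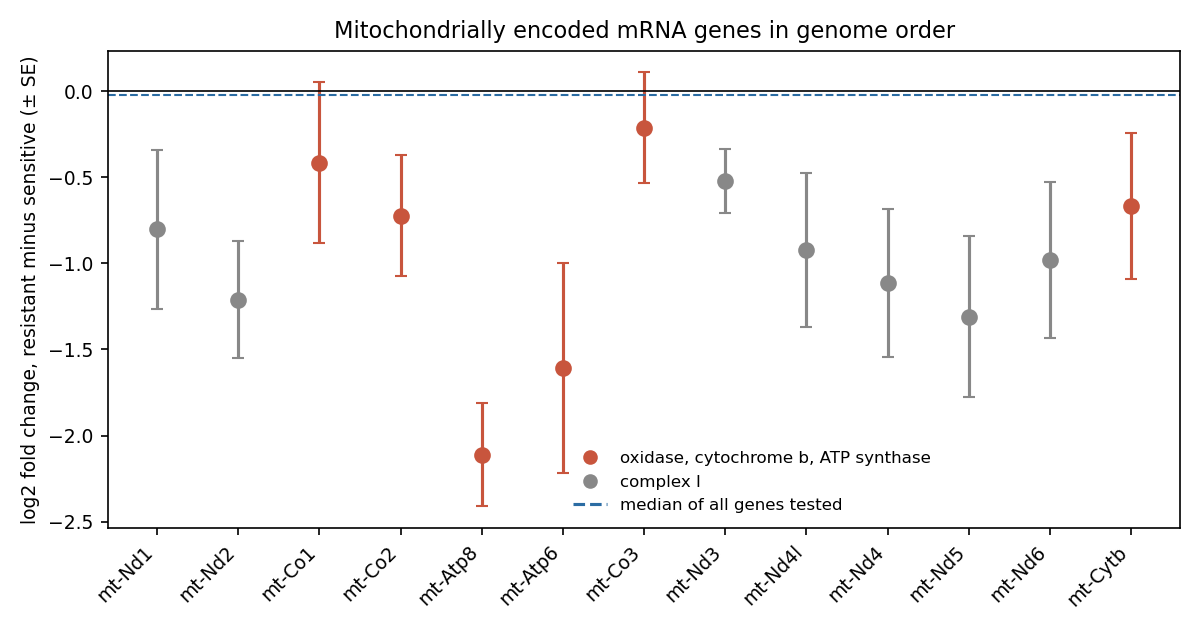
Log2 fold change (resistant minus sensitive) with its standard error for the 13 mitochondrially encoded messenger RNA genes in genome order. All 13 lie below 0, from -2.11 for mt-Atp8 to -0.21 for mt-Co3.

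The 7 complex I genes of the same genome had lower fitted levels as well, beside 52.7% of all tested genes, with a median log2 fold change of -0.98. Of these, 4 had an unadjusted edgeR p under 0.05, against 5.73% of all tested genes that were lower at that p. None was called by edgeR, which called 0% of all tested genes. DESeq2 called 1, mt-Nd2, and called 0.514% of the genes it tested as lower. mt-Nd2 measured -1.21 ± 0.34, mt-Nd5 -1.31 ± 0.47 and mt-Nd3 -0.52 ± 0.19 on the log2 scale. mt-Atp8 and mt-Atp6 therefore had the 2 lowest fold changes of the 13, and mt-Co3 and mt-Co1 the 2 nearest 0.

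Together the 6 genes held 10.8%, 6.76% and 5.68% of all counts in sensitive tumours 1, 2 and 3 and 4.97%, 5.97% and 4.18% in resistant tumours 1, 2 and 3. Resistant tumour 2 lay above sensitive tumour 3, so the groups overlapped. The means were 7.75% ± 2.70 and 5.04% ± 0.898 (SD, n = 3 each), and the exact two-sided permutation p was 0.2, where 3 against 3 tumours cannot give less than 0.1. Without sensitive tumour 1 the difference shrank from -2.71 to -1.18 percentage points.

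Shares within the 13 mitochondrial genes do not depend on how much mitochondrial RNA a library held. mt-Co1 took 25.0%, 25.0% and 23.1% of these counts in the sensitive tumours and 33.7%, 33.3% and 29.6% in the resistant tumours. mt-Co3 took 6.02%, 6.70% and 7.51% in the sensitive tumours and 10.3%, 9.30% and 10.6% in the resistant tumours. Both were higher in every resistant tumour than in any sensitive tumour.

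The ATP synthase genes went the other way. mt-Atp6 took 12.6%, 13.5% and 14.3% in the sensitive tumours and 2.39%, 9.66% and 11.4% in the resistant tumours. mt-Atp8 took 3.39%, 5.98% and 5.00% in the sensitive tumours and 1.49%, 1.32% and 3.02% in the resistant tumours. Again no resistant tumour reached a sensitive one, although for mt-Atp8 sensitive tumour 1 and resistant tumour 3 were close.

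As a log2 ratio to the other 12 genes, the difference between groups was 0.56 for mt-Co1, 0.63 for mt-Co3, -1.16 for mt-Atp6 and -1.41 for mt-Atp8. Each of these had the smallest p that 3 against 3 tumours allow in an exact two-sided permutation test, 0.1, or 0.15 adjusted over the 6 genes. mt-Co2 differed by 0.09 and mt-Cytb by 0.16, each with an exact permutation p of 0.4 and overlapping groups. The shares of the 13 genes sum to the whole, so a lower share of some raises others. Without resistant tumour 1 the mt-Atp6 difference was -0.40.

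**Figure D3:**
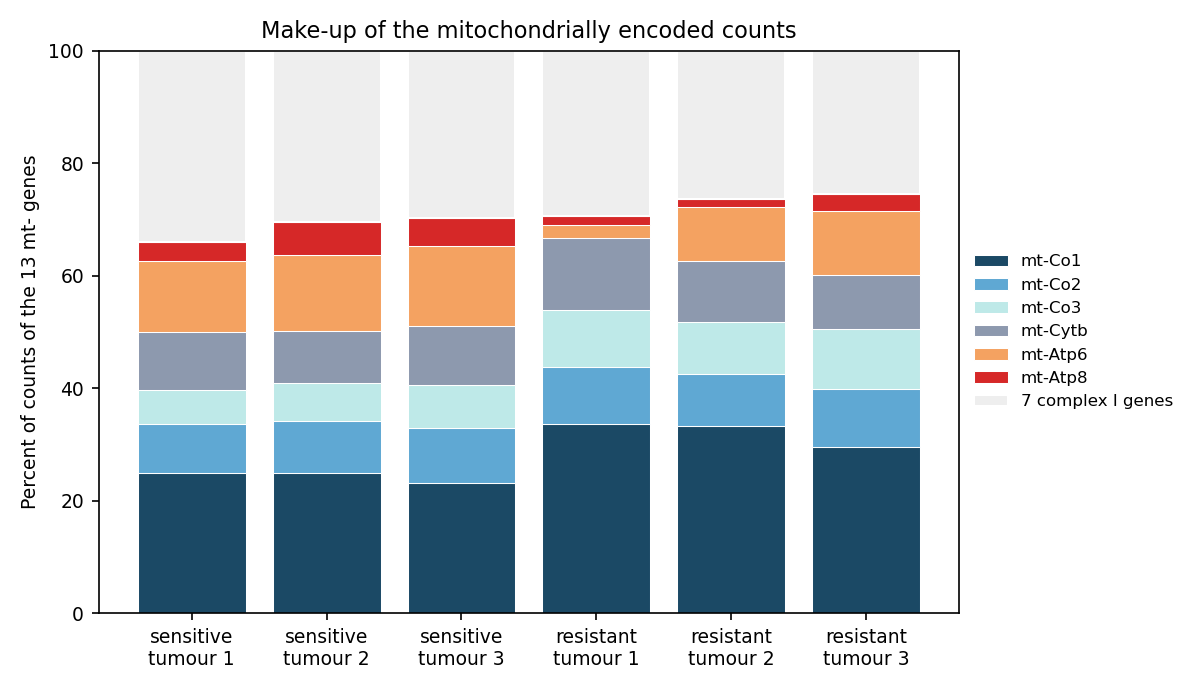
Percent of the counts of the 13 mitochondrially encoded messenger RNA genes taken by each of the 6 genes, stacked by tumour on an axis from 0, with the 7 complex I genes in grey. mt-Co1 takes 23.1% to 25.0% in sensitive and 29.6% to 33.7% in resistant tumours, while mt-Atp6 and mt-Atp8 take less in every resistant tumour.

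Levels of different genes were compared per length, as FPKM. In the sensitive tumours mt-Atp8 averaged 25147 ± 4673 FPKM and mt-Atp6 22159 ± 7151 FPKM (SD, n = 3), above mt-Co1 at 18084 ± 7471 FPKM and mt-Co2 at 15200.3 ± 4927 FPKM. mt-Cytb at 10007 ± 4098 FPKM and mt-Co3 at 9533 ± 2640.5 FPKM were the lowest. The means of neighbours in this order lay within the spread between tumours, except that mt-Co2 and mt-Cytb were apart by slightly more than either SD. Within each sensitive tumour, however, mt-Co1 was 3rd and mt-Co2 4th of the 6. The ATP synthase genes were above them and mt-Cytb and mt-Co3 below, in changing order.

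In the resistant tumours the order was another. mt-Co1 was first in all 3 tumours, at 14532 ± 3470.3 FPKM, followed by mt-Co2 at 9861 ± 1239 FPKM, mt-Co3 at 8800 ± 1101 FPKM and mt-Atp6 at 7795 ± 4732 FPKM. mt-Cytb averaged 6759 ± 1739 FPKM and mt-Atp8 6226 ± 1786 FPKM. mt-Co1 and mt-Co2 were apart by more than either SD, and the later neighbours were not. Within each resistant tumour mt-Co2 was still above mt-Co3. Among the 6 genes mt-Atp8 went from 1st or 2nd in each sensitive tumour to 5th, 6th and 4th in resistant tumours 1, 2 and 3.

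In resistant tumour 1 mt-Atp6 and its nuclear copy parted. mt-Atp6 had 8.89, 8.78 and 8.99 counts per count of Gm10925 in the sensitive tumours and 7.67 and 8.75 in resistant tumours 2 and 3, but 1.84 in resistant tumour 1. There mt-Atp6 had 27618 counts and Gm10925 14973. The ratio of the other tumours was therefore nearly constant, and only that library stood apart.

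The other pairs kept their ratios in that library. mt-Co2 had 6.49 to 8.58 counts per count of Gm28661 over the 6 tumours, with 6.81 in resistant tumour 1. mt-Co3 had 8.40 to 9.29 per count of Gm28437, with 9.19 there, and mt-Co1 64.1 to 80.8 per count of Gm29216, with 77.9 there. The cause of the low mt-Atp6 count was not tested.

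**Figure D4:**
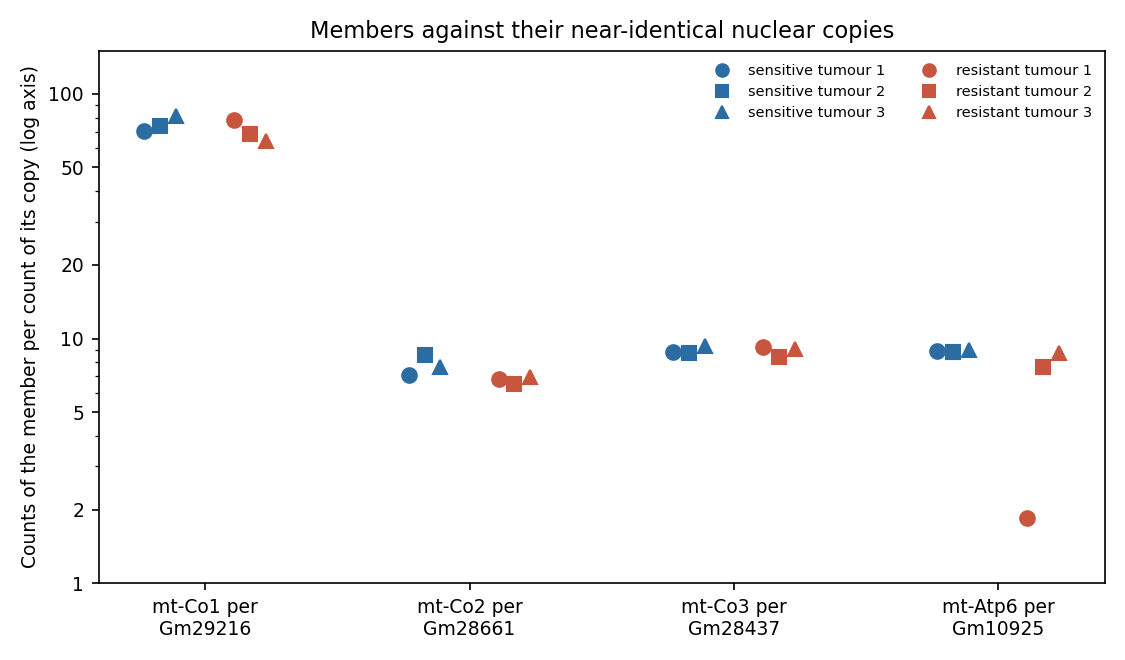
Counts of mt-Co1, mt-Co2, mt-Co3 and mt-Atp6 per count of their near-identical chromosome 1 copies, by tumour. The mt-Atp6 ratio is 1.84 in resistant tumour 1 and 7.67 to 8.99 in the other 5 tumours.

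Gm10925 itself measured 2526, 1519 and 1277 CPM in the sensitive tumours and 890.02, 1015 and 697 CPM in the resistant tumours, without overlap. Its log2 fold change was -1.03 ± 0.30, with an unadjusted p of 0.0125 and an adjusted p of 0.510 by edgeR. Gm28661, Gm28437 and Gm29216 measured -0.55, -0.20 and -0.35. mt-Atp6 measured -1.61 over all 6 tumours and -1.18 without resistant tumour 1.

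The ratio of mt-Atp8 to mt-Atp6, which share a messenger, was 0.269, 0.444 and 0.350 in the sensitive tumours and 0.623, 0.137 and 0.264 in the resistant tumours. The groups overlapped, with the highest ratio in resistant tumour 1, where mt-Atp6 was low. The log2 difference was -0.30, with an exact two-sided permutation p of 0.7, and it turned to 0.23 without resistant tumour 2 and was -0.87 without resistant tumour 1.

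Gm10925 and mt-Co2 did not share the far lower level of mt-Atp6 in resistant tumour 1. Both were still lower there than in any sensitive tumour. Relative to either, mt-Atp8 was lower in all 3 resistant tumours than in any sensitive tumour. Per count of Gm10925 it was 2.39, 3.90 and 3.14 in the sensitive tumours and 1.15, 1.05 and 2.31 in the resistant tumours. Per count of mt-Co2 it was 0.389, 0.646 and 0.508 in the sensitive tumours and 0.149, 0.145 and 0.292 in the resistant tumours. The log2 differences were -1.13 and -1.45, each with an exact permutation p of 0.1, the smallest possible; these references were chosen after the data were seen. Another overlapping pair, mt-Nd4l and mt-Nd4, had ratios of 0.169 to 0.197 in the sensitive and 0.191 to 0.219 in the resistant tumours. That is a log2 difference of 0.21 (exact permutation p = 0.2). Nuclear copies of this pair were not sought, and the chromosome 1 block with the members' copies holds 7 unprocessed pseudogenes. Read sharing in this pair is therefore not known.

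**Figure D5:**
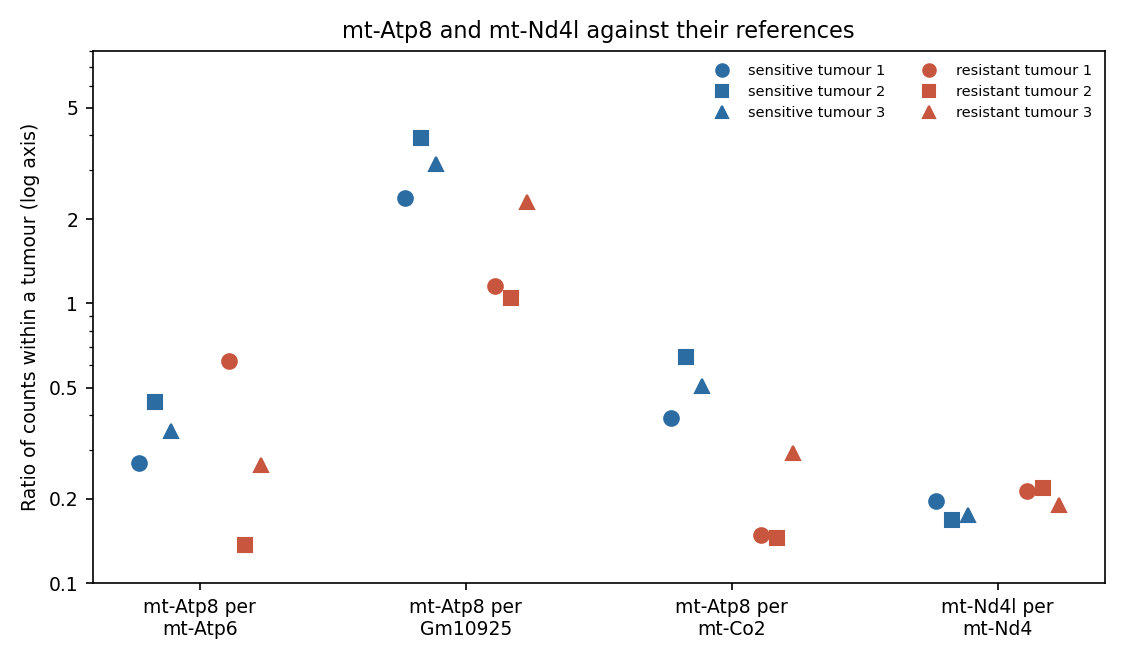
Count ratios within each tumour of mt-Atp8 to mt-Atp6, to Gm10925 and to mt-Co2, and of mt-Nd4l to mt-Nd4, on a log axis. The groups overlap for mt-Atp8 to mt-Atp6 and for mt-Nd4l to mt-Nd4, and separate for mt-Atp8 against Gm10925 and mt-Co2.

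Over the 6 tumours the members did not all vary together. In log2 CPM, Pearson's r was 0.98 for mt-Co1 with mt-Co3, 0.96 for mt-Co2 with mt-Cytb and 0.95 for mt-Co1 with mt-Cytb. It was 0.82 for mt-Atp8 with mt-Atp6, but 0.30 for mt-Atp8 with mt-Co3 and 0.38 for mt-Atp8 with mt-Co1. For mt-Atp6 with mt-Cytb it was 0.50, and it became 0.93 without resistant tumour 1 and 0.064 without sensitive tumour 1. Without sensitive tumour 1 it also became -0.39 for mt-Atp8 with mt-Co3 and -0.10 for mt-Atp8 with mt-Co1. These values describe 6 libraries, share their depth and scaling, and carry no test.

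Likeness was ranked among 9745 genes whose log2 CPM averaged 3 or more. Genes with an mt-, Gm-number or Rik symbol were left out beforehand, and with them the other mitochondrial genes and the nuclear copies. Most like the mean of the 6 members over the 6 tumours were genes that included Prepl (r = 0.99), Hivep3, Emc2 and Smoc1 (the last with r = 0.97). Those most like mt-Atp8 were Bre (r = 0.99), Mat2a, Arcn1, Rnf11 and Ylpm1 (r = 0.98). Mat2a, which encodes the catalytic subunit of methionine adenosyltransferase, measured 402, 381 and 312 CPM in the sensitive and 198, 177 and 205 CPM in the resistant tumours. Its log2 fold change of -0.92 was the farthest from 0 among the genes picked here for their likeness. Arcn1 measured -0.14 ± 0.11, Emc2 -0.25 ± 0.13 and Bre -0.27 ± 0.13. These genes were picked as the highest r of 9745 over only 6 tumours, and their likeness carries no test.

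The nuclear partners of these complexes lay the other way. Of 11 nuclear subunit genes of complex IV, 10 were fitted higher in the resistant group, beside 47.3% of all tested genes, and their median log2 difference was 0.43. An unadjusted p under 0.05 with a higher level was found for 8 of the 11, against 4.02% of all tested genes. By edgeR 0 of them were called at the adjusted threshold, and by DESeq2 1 was. That gene was Cox5b, a structural subunit, at 36.5 ± 1.63 CPM in the sensitive and 53.2 ± 2.14 CPM in the resistant tumours. Its log2 fold change was 0.54 ± 0.13, with an adjusted p of 0.510 by edgeR and 0.0330 by DESeq2. Cox7a2 measured 0.52 and Cox6b1 0.43.

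Complex III and V subunits followed the same order. Among all tested genes 47.3% were higher, and 4.02% were higher at an unadjusted edgeR p under 0.05. Of 9 nuclear complex III genes, 8 were higher, 4 at an unadjusted p under 0.05, with a median of 0.27; Uqcrq measured 0.62 ± 0.18. Of 18 nuclear complex V genes, 17 were higher, 5 at an unadjusted p under 0.05, with a median of 0.29; Atp5k, which encodes subunit e, measured 0.71 ± 0.23. Neither list had a call by edgeR or DESeq2, which called 0% and 0.872% of the genes they tested.

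Among genes that assemble these complexes or maintain and read mitochondrial DNA, none was called by edgeR or DESeq2. Those tools called 0% and 0.872% of the genes they tested. Of all tested genes 47.3% were higher, and 4.02% were higher at an unadjusted edgeR p under 0.05. Of the 17 tested complex IV assembly factors, 12 were higher, with a median of 0.24 and 2 at an unadjusted p under 0.05, Cox18 (0.61) and Cox14 (0.55). Of the 9 tested assembly factors of complexes III and V, 3 were higher, with a median of -0.11; Uqcc2, needed for cytochrome b, measured 0.56. Medians were 0.01 for 10 mitochondrial DNA maintenance genes, -0.09 for 10 transcription genes, -0.00 for 20 RNA processing and stability genes, -0.06 for 10 translation factors and 0.01 for 6 regulators of mitochondrial biogenesis. Among them Tfam, which packages mitochondrial DNA, measured 0.13 ± 0.13, and Polrmt, the mitochondrial RNA polymerase, 0.20 ± 0.22. Rexo2, which degrades short RNAs in mitochondria, measured -0.29 ± 0.11, and Rrm2b, a ribonucleotide reductase subunit, -0.45 ± 0.15, both with an edgeR adjusted p of 0.510.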

How the data were processed

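The authors deposited whole-number read counts per gene, not normalized, and FPKM values, which scale those counts by gene length and library total. Per the labels' protocols, TRIzol was used to extract total RNA, and the Vazyme VAHTS Universal V6 kit to build libraries. HISAT2, StringTie and edgeR are named, with no version, in the submitters' processing notes. Not given in the sources used here are strandedness, genome build, annotation and the handling of multiply matching reads.

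The test on counts was that of edgeR 4.0.16 under R 4.3.3 (filterByExpr, TMM scaling, quasi-likelihood F-test, resistant against sensitive, no block), with Benjamini-Hochberg adjustment over 14392 genes and calls at an adjusted p under 0.05. CPM use TMM-scaled totals. DESeq2 1.42.0, limma-voom (limma 3.58.1), limma on log2(FPKM + 1) and log2(FPKM + 0.1), other scalings, no filter and each tumour left out were alternatives. Ratios and shares were compared by exact two-sided permutation tests over tumours. The edgeR, DESeq2 and limma-voom fits were also run on simulated counts with known fold changes. Their spread was taken from edgeR's own estimates, so that run cannot decide which tool's calls hold here.

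Gene positions and sequences come from GENCODE M21 transcripts (GRCm38), in which 20355 of 20482 identifiers (99.4%) were found; 24 symbols that had become dates were restored by identifier. Nuclear copies were sought with blastn 2.17.0 among these transcripts, since no genome was used here, so unannotated copies were not analysed. Named genes are the 6 members, up to 3 genes with the smallest p in each list, and the 5 genes most like the members' mean and 5 most like mt-Atp8; 1 of these is not reported here. The members and lists were chosen with earlier results of these data known. No 2 libraries agreed within sampling noise. Tumours within a group are biological replicates per the series' design text, with no animal named for each, and same-numbered tumours did not deviate together (r of 0.05, 0.31 and -0.16 for the 3 numbers), so the numbers were not taken as pairs.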

Additional observations from a re-analysis of the deposited data

How the results depend on the processing

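Of 194 alternative values, 188 were counted as unchanged. For fold changes this meant the same direction and side of the threshold. For shares and ratios only the direction could change, since their permutation p could not fall under 0.05. The median of the 6 genes was counted as unchanged if it moved by less than 0.364. That is the mean SD, within a group, of the 6 genes' average log2 CPM. The number of called genes was unchanged if it stayed at 0. DESeq2 called 117 genes where edgeR called 0, among them mt-Atp8 (log2 fold change -2.11, adjusted p 3.35e-12); over the alternatives the adjusted p of mt-Atp8 ran up to 0.879. Leaving out each tumour in turn gave -0.65 to 0.046 for mt-Co1 and -0.36 to 0.11 for mt-Co3, both above 0 only without sensitive tumour 1. It gave -0.88 to -0.27 for the median of the 6 genes, the last without sensitive tumour 1, and -0.87 to 0.23 for the log2 ratio of mt-Atp8 to mt-Atp6, above 0 only without resistant tumour 2. The cause was not tested. mt-Atp6 ranged from -2.03 to -1.18 and its log2 ratio to the other 12 genes from -1.60 to -0.40. With the replicate number as a block, which the pairing check did not support, mt-Atp8 measured -2.12 and mt-Atp6 -1.75, and 0 genes were called. Summing each gene with its near-identical copy, added after the data were seen, gave -1.54 for mt-Atp6. With 3 tumours a group no permutation test could reach a p under 0.1.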
